A study of Mus musculus with 23 samples.

Results

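The genes 1700003C15Rik, Gm19331, Slc16a11, Tmem121, Cox6a2 and Crip2 were followed in single-cell RNA sequencing libraries of bone marrow (BM) from mice with wild-type (WT) Stat5b, the Y665F variant or the Y665H variant. These 6 members, of 32285 genes in the matrices, were chosen by their UMI counts in Y665F against WT marrow, as genes with low levels in Y665F, so the marrow values of Y665F against WT that follow are a description and carry no test. The Y665H values share the WT libraries with that choice and are given in the same way. The labels give all mice as C57BL/6, 2 months old, and the study's methods name C57BL/6N. The BM libraries, 2 for each of WT, Y665H and Y665F, carry no zygosity in their titles. The series also holds 3 spleen libraries, 1 for each of the same genotypes, and 7 lymph node (LN) libraries, 2 of WT, 3 of Y665F het and 2 of Y665F homo. The Y665F line was made with Cas9 and a donor oligonucleotide and the Y665H line with a base editor, and both changes are germline, so every cell type carried them. Spleen cells were sorted as CD45+, and how marrow cells were selected is not given in the sources used here.

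STAT5B carries signals from cytokine receptors to the genome once it is phosphorylated. In the marrow, stem cells give rise to lymphoid-primed progenitors, which make B and T lymphocytes and contribute to plasmacytoid dendritic cells (pDCs), and to erythroid progenitors, which make red cells. Lymphoid-primed progenitors are recognised by Flt3, a cytokine receptor, and Dntt, the terminal deoxynucleotidyl transferase that adds bases to antigen receptor joints. Cox6a2 encodes the heart and muscle isoform of subunit 6A of cytochrome c oxidase and is also transcribed in mouse pDCs. Slc16a11 encodes a member of the monocarboxylate transporter family, Crip2 a cysteine-rich LIM-domain protein, and Tmem121 a membrane protein of little-known function. 1700003C15Rik and Gm19331 are annotated as long intergenic non-coding RNAs.

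On GRCm38 (GENCODE vM21), 3 of the 6 genes lie on chromosome 12. Crip2 (chr12:113140236-113145506, plus strand) and Tmem121 (chr12:113185930-113189523, plus strand) are 40.4 kb apart, beside the constant genes of the immunoglobulin heavy chain. Gm19331 (chr12:115386846-115397688, plus strand) lies among the variable segments of that locus and overlaps Ighv1-62-1 on the other strand. 1700003C15Rik (chr5:11689253-11769308, minus strand) overlaps Gm8924, and Cox6a2 (chr7:128205435-128206387, minus strand) overlaps Itgad, in both cases on the other strand. Slc16a11 (chr11:70212752-70216417, plus strand) overlaps no other gene. Whether the counting used strand is not given in the sources used here, and reads shared with similar sequences elsewhere were not tested.

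Promoter windows from RefSeq (GRCm38.p6) were found for 4 of the 6 genes, and 4 of these are shown so that members low in the same libraries can be compared letter by letter. Each window holds the 250 bases before a start, 5′ to 3′ on the gene's strand, with matches to CAGGTG (the E-protein motif, searched on both strands, so that CACCTG also counts) in capitals. The windows are chr5:11769309-11769558 (minus strand) for 1700003C15Rik, chr11:70213660-70213909 (plus strand) for Slc16a11, chr12:113185653-113185902 (plus strand) for Tmem121 and chr12:113140355-113140604 (plus strand) for the second start of Crip2.
1700003C15Rik: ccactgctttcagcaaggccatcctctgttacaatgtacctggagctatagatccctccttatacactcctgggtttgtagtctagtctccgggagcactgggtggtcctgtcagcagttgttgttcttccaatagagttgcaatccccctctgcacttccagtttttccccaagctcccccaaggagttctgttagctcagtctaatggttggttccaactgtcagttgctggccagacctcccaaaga
Slc16a11: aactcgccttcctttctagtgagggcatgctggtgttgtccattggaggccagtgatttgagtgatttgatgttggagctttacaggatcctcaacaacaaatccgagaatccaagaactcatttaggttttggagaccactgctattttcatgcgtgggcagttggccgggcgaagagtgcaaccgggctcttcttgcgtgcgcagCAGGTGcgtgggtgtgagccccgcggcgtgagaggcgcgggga
Tmem121: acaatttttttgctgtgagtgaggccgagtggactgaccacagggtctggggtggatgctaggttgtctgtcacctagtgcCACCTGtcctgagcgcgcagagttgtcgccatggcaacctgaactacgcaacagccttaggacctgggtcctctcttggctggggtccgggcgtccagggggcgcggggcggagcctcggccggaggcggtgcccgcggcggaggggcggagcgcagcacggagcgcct
Crip2, second start: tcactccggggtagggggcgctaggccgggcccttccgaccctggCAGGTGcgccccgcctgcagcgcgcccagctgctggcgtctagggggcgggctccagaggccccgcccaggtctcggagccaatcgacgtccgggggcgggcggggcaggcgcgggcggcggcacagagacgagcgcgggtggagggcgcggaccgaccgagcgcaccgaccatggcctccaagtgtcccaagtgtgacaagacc
CAGGTG stood 43 bases before the RefSeq start of Slc16a11, 169 before that of Tmem121 and 205 before the second start of Crip2. The Slc16a11 window and that of the second Crip2 start lie inside the GENCODE genes given above. They are downstream of the GENCODE gene starts, chr11:70212752 and chr12:113140236. CAGGTG was in neither the window of 1700003C15Rik nor that of the first start of Crip2 (chr12:113139986-113140235). Of 32851 promoter windows of this length, 17.2% hold CAGGTG on either strand. The STAT5 motif TTCNNNGAA, which reads the same on both strands, was in none of the windows of these genes and in 7.02% of all promoter windows. These letters say nothing of what binds outside the windows.

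The marrow libraries held between 4420 and 18742 deposited barcodes and between 16399123 and 55768078 unique molecular identifiers (UMIs), with a median of 1617 to 2809 UMIs a barcode. The lowest barcode held 500 UMIs in 5 of the libraries and 1179 in Y665F replicate 2. Pairs of marrow libraries shared 80 to 476 barcode sequences (1.54% to 2.89% of the smaller library), and the UMI totals of shared barcodes had rank correlations between −0.189 and 0.113. In each genotype replicate 1 was female and replicate 2 male by Xist, which for replicate 1 goes against the male tissue donors of the study's methods, so sex and preparation cannot be told apart, and the values within a sex are given beside the pooled ones. Stat5b itself was measured at 25.9 and 19.1 UMIs of the gene per 1000000 UMIs (CPM) in WT, 16.1 and 16.7 in Y665H and 38.4 and 49.7 in Y665F, which is no check of a point mutation. Xist was at 684, 234 and 808 CPM in replicate 1 of WT, Y665H and Y665F, and at 0.0818, 0.132 and 0.433 CPM in replicate 2. Whether the lower value of Y665H replicate 1 reflects a mix of sexes was not tested. In these bulk sums over a library, fewer cells of a type and less RNA per cell cannot be told apart.

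All 6 genes were lower in both Y665F libraries than in every WT and Y665H library when UMIs were summed over all barcodes. The long non-coding RNA 1700003C15Rik was at 2.51 and 11 CPM in WT, 2.999 and 10.3 in Y665H and 0.481 and 0.331 in Y665F (replicates 1 and 2 of each). Its WT replicates lay further apart, as a ratio, than those of the other genes, with replicate 2 the higher one in WT and in Y665H. The mean was 6.76 ± 6.01 CPM in WT (SD, n = 2) and 0.406 ± 0.106 CPM in Y665F (SD, n = 2), 16.6-fold lower. Gm19331 was at 3.22 and 7.24 CPM in WT, 3.05 and 4.63 in Y665H and 0.918 and 0.458 in Y665F, with a mean 7.60-fold lower in Y665F. Both non-coding genes thus rested on few UMIs in Y665F, 22 and 13 for 1700003C15Rik and 42 and 18 for Gm19331.

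The protein-coding genes were also lowest in the Y665F libraries. Slc16a11 was at 6.17 and 7.44 CPM in WT, 5.86 and 6.12 in Y665H and 0.918 and 1.30 in Y665F, 6.14-fold lower in the mean of Y665F. Slc16a11 was the only one of the 6 genes with both Y665H libraries below both WT libraries, a separation that 34.5% of the 13711 genes tested showed. Tmem121 was at 6.62 and 12.8 CPM in WT, 8.48 and 7.67 in Y665H and 1.44 and 1.76 in Y665F, 6.08-fold lower in Y665F. Cox6a2 was at 27.1 and 63.0 CPM in WT, 30.8 and 44.6 in Y665H and 18.2 and 22.9 in Y665F, 2.19-fold lower and the smallest difference among the 6. Crip2 was at 57.8 and 49.5 CPM in WT, 77.5 and 51.5 in Y665H and 8.85 and 5.58 in Y665F, 7.44-fold lower. The Y665H values of Crip2 overlapped with those of WT.

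**Figure D1:**
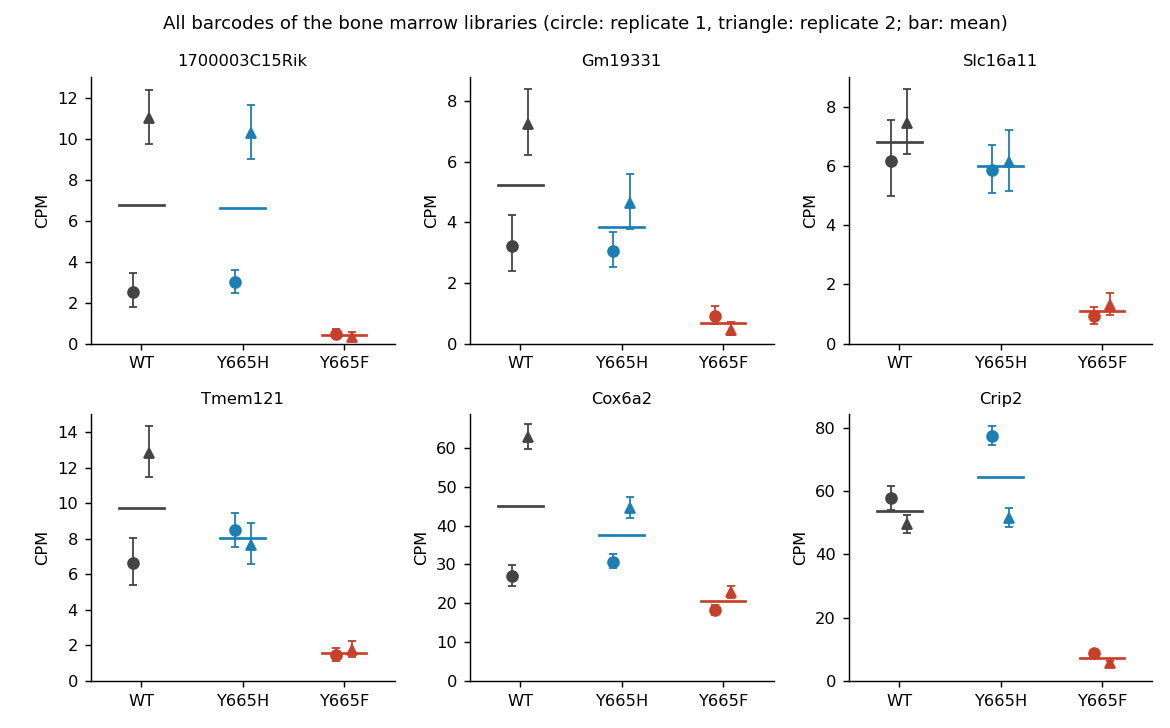
CPM of each gene in the 6 marrow libraries, over all barcodes, by genotype. Circles are replicate 1, triangles replicate 2, horizontal bars the mean of both and whiskers the exact 95% Poisson interval of the UMI count. Both Y665F points lie below all WT and Y665H points in each panel, closest as a ratio for Cox6a2 (22.9 CPM against 27.1).

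Of the 13711 genes tested, 18.4% had both Y665F libraries below all WT and Y665H libraries, and the choice of members fixes their place among them. In the edgeR fit across all genes, 8.44% were called lower and 7.87% higher in Y665F than in WT (called at an adjusted p below 0.05 with a log2 fold change beyond 1 in size). No gene was called in Y665H (0%) by edgeR, and none by DESeq2, while 763 and 769 genes had an unadjusted p under 0.05 in these fits. With the replicate number, and so the sex, as a block, edgeR called 40 genes in Y665H. Within a sex the Y665F level of 1700003C15Rik was 5.22-fold lower among females and 33.2-fold lower among males. The corresponding values were 3.50-fold and 15.8-fold for Gm19331, 6.73-fold and 5.73-fold for Slc16a11 and 4.59-fold and 7.31-fold for Tmem121. They were 1.49-fold and 2.74-fold for Cox6a2 and 6.53-fold and 8.88-fold for Crip2. Since both Y665F libraries lay below both WT libraries for each of these genes, a lower value within each sex was fixed in advance. Each sex was 1 library of a genotype, so only the sizes are given. The 2 non-coding genes differed most in size between the sexes.

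The genes were next placed in cell types. Barcodes were assigned to 1 of 17 lineage gates by a score over 6 marker genes each, and the level of a gate is its CPM over its barcodes. In WT marrow the lymphoid-primed progenitor gate held 8.16% of all UMIs. It held 54.2% of the UMIs of Gm19331, 50.1% of those of Cox6a2, 36.0% of those of 1700003C15Rik, 35.7% of those of Tmem121 and 33.8% of those of Slc16a11. A further 24.2% to 36.7% of the UMIs of these 5 genes fell in barcodes that passed no gate. Crip2 was distributed otherwise, with 72.2% of its UMIs in the early erythroid gate, which held 40.5% of all UMIs, and 12.3% in the hemoglobin-rich erythroid gate, which held 4.08%. The lymphoid-primed gate thus held more of the UMIs of 5 genes than any other gate, but over 50% of those of 2 of them alone (Gm19331 and Cox6a2), and the erythroid gates held most of those of Crip2.

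By level rather than by share, the WT order of gates differed between genes. 1700003C15Rik was highest in the pDC gate (51.1 ± 39.4 CPM, SD, n = 2) and the lymphoid-primed gate (31.5 ± 28.6), and these overlapped between libraries. Gm19331 stood at 36.1 ± 18.3 CPM in the lymphoid-primed gate and 26.2 ± 12.2 in the pDC gate, which also overlapped. Slc16a11 led in the stem cell gate (32.5 ± 9.97 CPM) and the lymphoid-primed gate (29.7 ± 10.5), with the pDC gate next at 13.1 ± 6.09 and below both WT lymphoid-primed values. The transmembrane protein gene Tmem121 was at 65.1 ± 52.2 CPM in the T and NK gate, from 12 UMIs, and at 44.1 ± 17.7 in the lymphoid-primed gate and 33.0 ± 30.7 in the B lineage gate. Each of the first 4 gates of Tmem121 overlapped with the next in that order. Cox6a2 was at 326 ± 10.2 CPM in the pDC gate and 286.5 ± 158 in the lymphoid-primed gate, and the third gate, B lineage, was at 40.6 ± 46.8. Crip2 stood at 158 ± 7.90 CPM in the hemoglobin-rich gate and 94.2 ± 2.91 in the early erythroid gate, values that did not overlap with each other or with the B lineage gate at 28.1 ± 2.74.

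**Figure D2:**
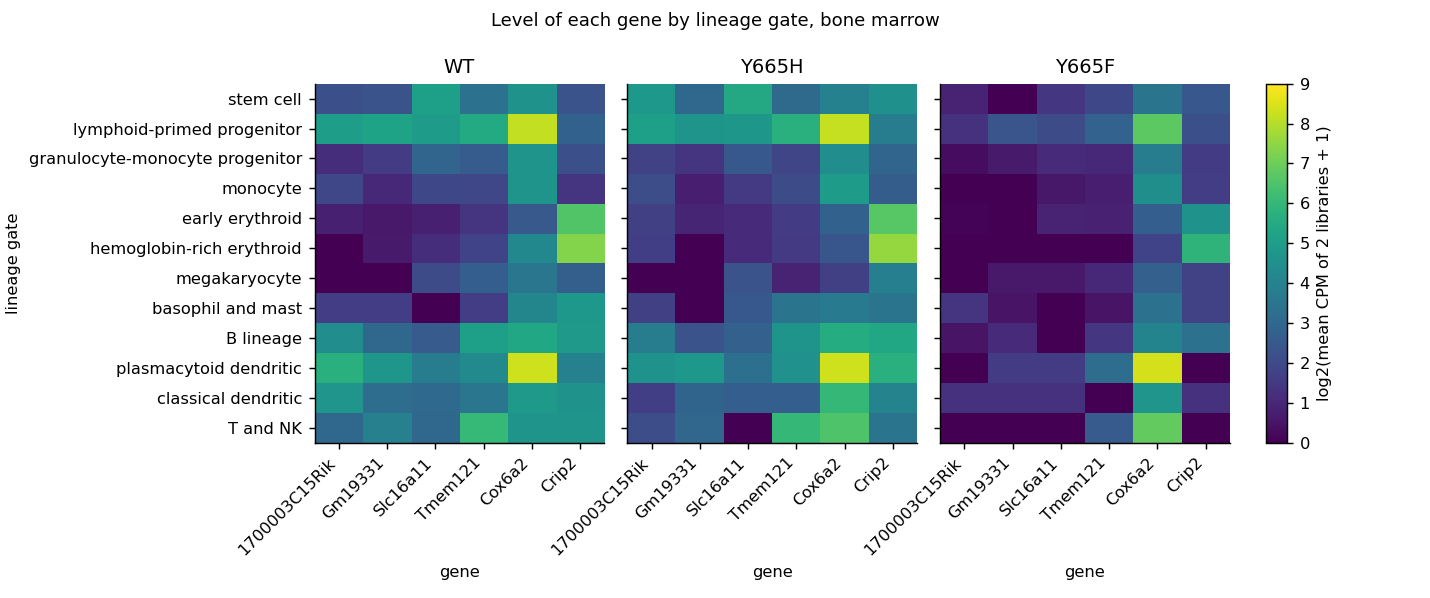
Level of the 6 genes (columns) in the 12 marrow lineage gates with at least 20 barcodes in each WT library (rows), as log2(mean CPM of 2 libraries + 1), for WT, Y665H and Y665F. The lymphoid-primed row is bright for 5 genes in WT and Y665H and darker in Y665F, Cox6a2 stays bright in the pDC row of all genotypes, and Crip2 is bright in the 2 erythroid rows.

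In the lymphoid-primed gate, which held 470 and 1015 barcodes in WT, 801 and 682 in Y665H and 968 and 1137 in Y665F, the 5 genes were again lowest in Y665F. 1700003C15Rik was at 11.2 and 51.7 CPM in WT, 14.4 and 51.2 in Y665H and 2.56 and 0.360 in Y665F. The last value was a single UMI, with an exact Poisson interval of 0.00912 to 2.01 CPM. The mean of Gm19331 was 8.60-fold lower in Y665F, from 23.1 and 49.0 CPM in WT and 24.9 and 23.3 in Y665H to 6.58 and 1.80. Intervals of single libraries, here and below, cover counting error only.

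Slc16a11 in the same gate was at 37.1 and 22.3 CPM in WT, 30.5 and 21.5 in Y665H and 3.29 and 3.24 in Y665F, 9.10-fold lower in Y665F. This transporter gene showed the closest pair of Y665F libraries, with 9 UMIs in each. Tmem121 was at 31.5 and 56.6 CPM in WT, 59.7 and 42.2 in Y665H and 7.68 and 4.68 in Y665F, 7.13-fold lower. Cox6a2 was at 174 and 399 CPM in WT, 262 and 329 in Y665H and 132 and 76.7 in Y665F, 2.74-fold lower, with WT replicate 1 and Y665F replicate 1 the closest pair. Crip2, scarcely detected in this gate, was at 4.20 and 7.62 CPM in WT and 3.29 and 3.96 in Y665F. All 6 genes had both Y665F libraries below the WT and Y665H libraries in this gate, where 18.5% of the 10071 genes tested did.

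Within a sex, the lymphoid-primed level of Slc16a11 was 11.3-fold lower in Y665F among females and 6.88-fold among males. For Tmem121 the values were 4.10-fold and 12.1-fold, and for Gm19331 3.51-fold and 27.2-fold. Cox6a2 was 1.32-fold lower among females and 5.19-fold lower among males, so its gap in this gate was larger between the replicate 2 libraries. 1700003C15Rik was 4.38-fold lower among females, and among males it had 95 UMIs in WT and 1 in Y665F.

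**Figure D3:**
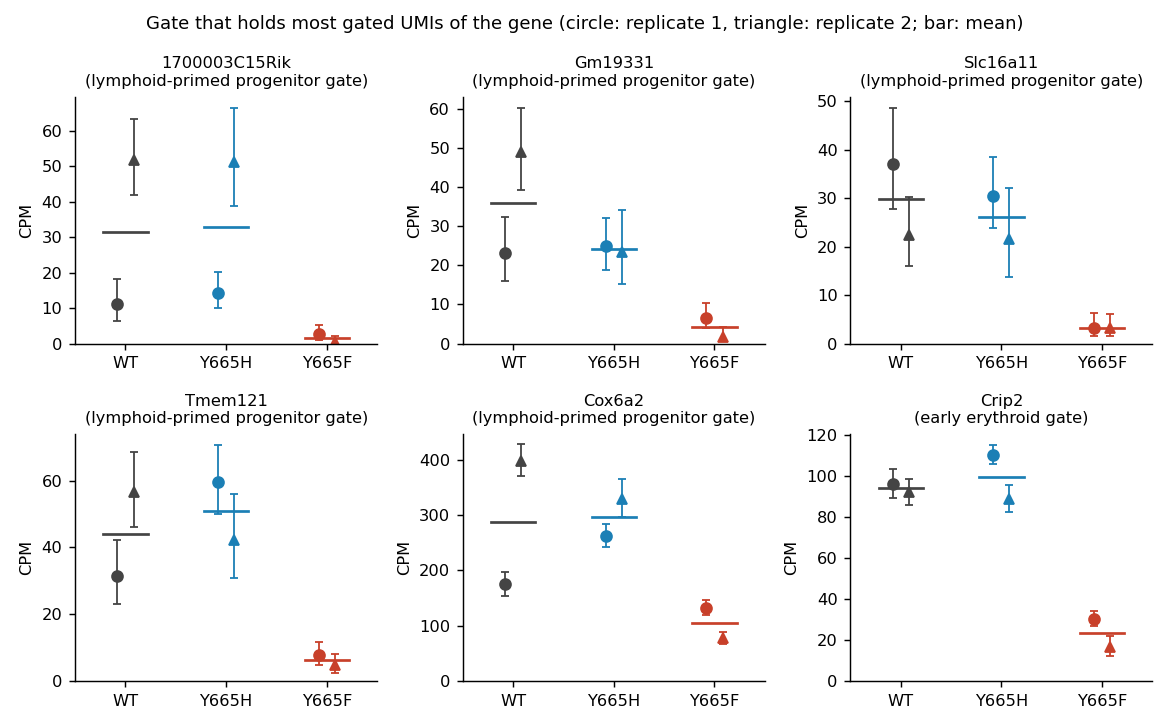
CPM by library in the lymphoid-primed progenitor gate for 5 genes and in the early erythroid gate for Crip2. Circles are replicate 1, triangles replicate 2, bars the mean and whiskers the exact 95% Poisson interval. The Y665F points are the lowest in each panel, and for Cox6a2 the gap to WT replicate 1 (132 against 174 CPM) is the narrowest as a ratio.

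By barcodes in place of UMIs, the Y665F libraries were again the lowest. Cox6a2 was seen in 20.2% and 34.8% of the lymphoid-primed barcodes of WT, 33.8% and 32.4% of those of Y665H and 15.1% and 11.4% of those of Y665F. After each barcode was thinned to 1000 UMIs, the shares were 9.82% and 26.7%, 20.03% and 25.7%, and 9.63% and 4.93%, so that replicate 1 of WT and of Y665F were nearly equal. In the early erythroid gate, a cell type not known for Cox6a2, 1.06% and 2.05% of WT barcodes had a Cox6a2 UMI at median depths of 5118.5 and 3051 UMIs, against medians of 2104.5 and 1604 in the lymphoid-primed gate. The Y665F share of Cox6a2 therefore stayed above that level.

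The other shares in the lymphoid-primed gate were smaller. Tmem121 had a UMI in 8.09% and 9.06% of WT, 12.98% and 6.30% of Y665H and 2.07% and 1.14% of Y665F barcodes. For Slc16a11 the shares were 8.09% and 3.55% in WT, 7.74% and 3.08% in Y665H and 0.930% and 0.704% in Y665F. Gm19331 was seen in 5.11% and 7.78% of WT, 5.87% and 3.37% of Y665H and 1.76% and 0.440% of Y665F barcodes. The shares of 1700003C15Rik were 2.55% and 7.78% in WT, 3.75% and 7.48% in Y665H and 0.517% and 0.0880% in Y665F. In the WT early erythroid gate the shares were 0.743% and 0.710% for Tmem121, 0.106% and 0.501% for Slc16a11, 0.106% and 0.334% for Gm19331 and 0.318% and 0.334% for 1700003C15Rik. Set against these WT shares of the same gene, the Y665F replicate 2 share of 1700003C15Rik lay below them. The other Y665F shares lay above, with Gm19331 in replicate 2 at 0.440% against 0.334%. In the early erythroid gate of Y665F replicate 2, 0 of 957 barcodes had a UMI of either gene, which allows up to 0.313%. The 0.0880% of 1700003C15Rik therefore cannot be told from background.

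Joint detection followed the single genes. At least 1 of the 5 genes other than Crip2 was seen in 34.3% and 49.0% of lymphoid-primed barcodes in WT, 48.9% and 44.9% in Y665H and 18.3% and 13.3% in Y665F. Thinned to 1000 UMIs, these became 14.6% and 38.7%, 29.9% and 33.3%, and 11.3% and 5.98%. At least 2 of the 5 were seen together in 8.51% and 12.3% of WT, 12.9% and 6.89% of Y665H and 1.76% and 0.528% of Y665F barcodes. The Y665F libraries lay below the others in each of these shares, while WT and Y665H overlapped.

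The make-up of the lymphoid-primed gate moved with genotype as well. Dntt was at 974 ± 17.7 CPM in WT, 854 ± 12.3 in Y665H and 426 ± 86.8 in Y665F (SD, n = 2), and Il7r, the receptor of interleukin 7, at 162 ± 2.81, 150 ± 11.8 and 68.9 ± 17.9. Flt3 was at 397 ± 63.0, 303 ± 44.96 and 326 ± 33.8 CPM and Cd27 at 212 ± 22.6, 193 ± 1.38 and 139 ± 13.8. The other gate markers, Satb1 (207, 181 and 265 CPM) and Notch1 (159, 149 and 203 CPM), were higher in the mean of Y665F. Of markers of other gates, the stem cell gene Hlf was at 31.7, 23.1 and 78.0 CPM and the myeloid gene Mpo at 240, 149 and 349 CPM in WT, Y665H and Y665F. Cd79a, Siglech and Klf1 (B cell, pDC and erythroid markers) were at or below 13.8 CPM in each genotype. The gate held 11.5% and 9.86% of barcodes in WT, 8.38% and 6.22% in Y665H and 6.18% and 7.15% in Y665F, and between 0.887% and 4.49% of its barcodes lay near its cut. The part of these differences in the member values was not tested.

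Barcodes with at least 1 Dntt UMI were examined as a further class, chosen after seeing the data. This class was larger than the lymphoid-primed gate, with 608 and 1776 barcodes in WT against 470 and 1015. In Y665F it held 1562 and 2121 barcodes against 968 and 1137. Its mean Crip2 level in WT was 23.8 CPM against 5.91 in the gate. Dntt itself was at 829 and 899 CPM in these barcodes of WT, 741 and 864 in Y665H and 632 and 538 in Y665F, so the class was not alike between genotypes. In it 1700003C15Rik was 17.5-fold lower in Y665F than in WT, Slc16a11 12.8-fold, Tmem121 7.87-fold, Gm19331 7.85-fold, Crip2 3.37-fold and Cox6a2 2.37-fold. The ratio of Y665H to WT was between 0.719 (Gm19331) and 1.44 (Crip2). The part of the Dntt level in these values was not tested.

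Outside the lymphoid-primed gate, Slc16a11 was the member with the clearest stem cell signal. In the stem cell gate it was at 25.5 and 39.6 CPM in WT, 64.8 and 20.5 in Y665H and 1.66 and 1.67 in Y665F, from 117 and 142, 105 and 86, and 917 and 1023 barcodes. The Y665F gate was thus the largest and had the lowest level, 19.6-fold below WT, with 4 UMIs in each Y665F library against 7 and 10 in WT. In the granulocyte-monocyte progenitor gate Slc16a11 was at 7.11 and 6.06, 6.20 and 2.92, and 1.05 and 1.14 CPM. Tmem121 was at 11.3 and 54.7 CPM in the B lineage gate of WT, 32.6 and 15.3 in Y665H and 0 and 3.41 in Y665F. The 0 allows a level of up to 2.24 CPM at the depth of that gate.

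Cox6a2 behaved differently in the pDC gate, which held 26 to 54 barcodes a library. It was at 319 and 333 CPM in WT, 432 and 220 in Y665H and 380 and 301 in Y665F, so the groups overlapped. A Cox6a2 UMI was seen in 50.0% and 35.6% of pDC-gate barcodes of WT, 46.3% and 16.2% of Y665H and 35.2% and 27.3% of Y665F. The exact Poisson interval of Y665F replicate 2, from 210 to 418 CPM, held both WT values. In the same gate 1700003C15Rik had 4 and 9 UMIs in WT and 0 and 0 in Y665F, and Gm19331 had 6 and 2 in WT and 1 and 0 in Y665F, too few to compare.

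**Figure D4:**
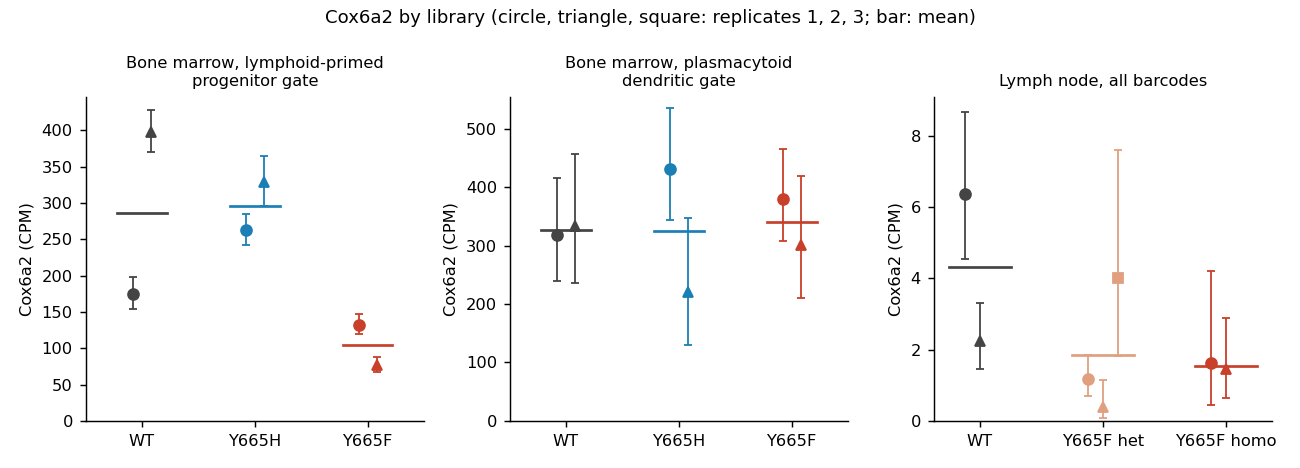
Cox6a2 in CPM by library in the marrow lymphoid-primed gate (left), the marrow pDC gate (middle) and over all LN barcodes (right). Circles, triangles and the square are replicates 1, 2 and 3, bars the mean and whiskers the exact 95% Poisson interval. The Y665F points are lowest in the left panel and lie among the others in the middle panel, where Y665F is at 380 and 301 CPM.

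Crip2 was an erythroid transcript in this marrow. In the early erythroid gate it was at 96.3 and 92.1 CPM in WT, 110 and 88.9 in Y665H and 30.3 and 16.5 in Y665F, 4.03-fold lower in the mean. In the hemoglobin-rich gate it was at 153 and 164, 208 and 173, and 78.0 and 35.4 CPM, 2.79-fold lower. The Y665F libraries lay below the others in both gates. Of the 4 members tested in the early erythroid gate (Slc16a11, Tmem121, Cox6a2 and Crip2), Crip2 alone was separated in this way, as were 19.1% of the 10894 genes tested there.

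A Crip2 UMI was found in 30.4% and 21.3% of WT early erythroid barcodes, 33.1% and 19.1% of those of Y665H and 10.3% and 4.39% of those of Y665F. Thinned to 1000 UMIs, the shares were 5.92% and 6.88%, 8.45% and 7.13%, and 1.93% and 1.46%. In the monocyte gate, which had the lowest mean Crip2 level of the 12 gates compared in WT, 0 of 266 and 0.917% of 327 WT barcodes had a UMI. The median depths there were 1393 and 2806, and the 0 allows a share of up to 1.13%. Other WT gates outside the erythroid ones had higher mean shares, 4.01% in B lineage, 4.26% in basophil and mast and 6.01% in T and NK. The 4.39% of Y665F replicate 2 in the early erythroid gate lay among these. Within a sex the early erythroid level was 3.17-fold lower among females and 5.59-fold among males, and the hemoglobin-rich level 1.96-fold and 4.64-fold. Over the 3 progenitor gates together (stem cell, lymphoid-primed and granulocyte-monocyte), the Crip2 groups overlapped.

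The early erythroid gate also differed in make-up. It held 23.0% and 23.3% of WT, 33.2% and 22.9% of Y665H and 9.70% and 6.02% of Y665F barcodes. Car1, a carbonic anhydrase of early erythroid cells, was at 6584 and 9505 CPM in WT, 8748 and 7353 in Y665H and 2406 and 1004 in Y665F. The erythroid factor Klf1 was at 201 and 180, 169 and 171, and 128 and 120 CPM in the same order. Mfsd2b, a lipid transporter of erythroid cells, went the other way, at 62.6 and 53.3, 42.5 and 62.9, and 129 and 170 CPM. The other gate markers were Gata1, at 174 and 168, 164 and 154, and 111 and 145 CPM, Epor, at 77.0 and 67.9, 70.6 and 63.9, and 61.8 and 77.2 CPM, and Ermap, at 234 and 175, 201 and 179, and 217 and 226 CPM. Of these, Epor and Ermap overlapped between Y665F and WT. The part of these shifts in the Crip2 values was not tested.

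Genes related to the members by pathway were counted in the fits across all genes, with the members left out. Of the 13 lymphoid progenitor genes, all tested over all marrow barcodes, 2 fell in Y665F and none rose by edgeR. These were Rag2, a subunit of the recombinase (log2 fold change −1.21, SE 0.294, adjusted p = 0.00679), and Dntt (−1.08, SE 0.227, adjusted p = 0.00295). The median log2 fold change of the list was −0.14, beside 0.03 for all genes. Over the 3 progenitor gates, where 5.29% of 11552 genes were called lower and 3.98% higher in Y665F, 4 of the 13 fell, namely Rag2 (−2.63), Il7r (−1.99), Dntt (−1.92) and Ighm (−1.06). The list median there was −0.52, beside 0.03. Dntt and Il7r are markers of the gate itself. The make-up of the 3 progenitor gates differed, with 1485 of 3313 barcodes lymphoid-primed in WT and 2105 of 10077 in Y665F. The stem cell gate held 259 and 1940 of them. The part of this make-up in these calls, and in the progenitor-gate calls below, was not tested.

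Among 18 pDC genes tested over all marrow barcodes, 3 fell in Y665F and 1 rose. Those that fell were Upb1 (log2 fold change −2.75), the chemokine receptor Ccr9 (−1.87) and the interferon factor Irf7 (−1.34), and the one that rose was the phosphatase gene Ptprs (1.11). In the progenitor gates 4 of 14 fell, Ccr9 (−3.19), Siglech (−2.70), Blnk (−1.68) and Irf7 (−1.41), and Ptprs rose (1.12). Ccr9 and Siglech are themselves markers of the pDC gate. In the lymphoid-primed gate Siglech was at 13.3 and 3.27 CPM in WT, 2.62 and 0.897 in Y665H and 2.19 and 2.16 in Y665F. Of 12 dendritic cell regulators none was called over all barcodes, and in the progenitor gates Nfil3 (−1.55) was the 1 of 9 that fell. The list medians over all barcodes were 0.11 for pDC genes and 0.09 for regulators, both near that of all genes.

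The protein families of the members did not move as 1 group. Among the other monocarboxylate transporter genes reported here over all barcodes, Slc16a9 (log2 fold change 2.53) and Slc16a3 (1.15) rose in Y665F. Bsg, the basigin chaperone that carries several of these transporters to the cell surface, fell (−1.77, from a mean of 468 to 153 CPM). In the progenitor gates Slc16a9 rose (2.42) and Bsg fell (−1.37) among 9 tested. Of 14 other nuclear-encoded cytochrome c oxidase subunits, 1 rose over all barcodes, Cox4i2 (2.76, from 1.80 to 13.6 CPM), and none fell. In the progenitor gates Cox4i2 (2.28) and Cox6b2 (1.42) rose. The median of the subunit list was −0.23 over all barcodes and 0.04 in the progenitor gates.

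None of 4 other CRIP and related LIM genes was called over all barcodes, and Csrp1 fell in the progenitor gates (log2 fold change −1.14). Tmem121b, the other gene of its family, was not called (−1.17). In Y665H no gene of any of these lists was called by edgeR, over all barcodes or in the progenitor gates, where 0% of all genes were called, 593 with an unadjusted p under 0.05, and DESeq2 called none, with 417. The Y665H list medians over all barcodes were −0.45 for lymphoid progenitor genes, −0.38 for pDC genes, −0.30 for dendritic cell regulators and 0.52 for oxidase subunits, beside −0.01 for all genes. In the progenitor gates they were −0.43, −0.37, −0.31 and 0.62 in the same order, beside −0.02. With the replicate block edgeR called 11 genes in the progenitor gates of Y665H.

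Genes within 250 kb of the members were counted in the same way. Gm19331 had 5 tested neighbours, all in the heavy chain locus, and 3 of them fell in Y665F, Gm30948, Ighv1-62-1 (log2 fold change −2.91) and Ighv1-69 (−3.69). Of all genes 8.44% were called lower. The last 2 rested on low levels, with means from 0.985 to 0.157 CPM for Ighv1-62-1 and from 0.637 to 0.058 CPM for Ighv1-69. In the progenitor gates the same 3 genes were tested and all 3 fell. Since Ighv1-62-1 overlaps Gm19331, their reads cannot be told apart if strand was not used. Around Slc16a11, 1 of 16 tested neighbours was called, Dlg4, which rose. Around Tmem121 and Crip2, which share most of their neighbours, Igha, the constant gene of IgA, rose among 11 and 10 tested (from 0.0409 to 17.7 CPM in the mean). In the progenitor gates Ighd (−1.79) and Ighm (−1.06) fell and Pacs2 (1.13) rose near Tmem121. Around Cox6a2, Rgs10 (−1.34) and Slc5a2 (−3.09) fell and the integrin gene Itgam (1.35) rose among 12. None of the 11 neighbours of 1700003C15Rik was expressed enough to test.

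The genes whose WT gate pattern was most like that of each member were found by Pearson correlation of log2(CPM + 1) over 12 gates among 10456 genes, as a description in which all points share the same 2 libraries. The 2 non-coding genes were closest to each other (r = 0.924), followed by Dntt (0.894 for 1700003C15Rik and 0.924 for Gm19331). Slc16a11 was nearest to Gpx7 (0.948), Paqr5 and Wfdc17, and Tmem121 to Zcchc18 (0.961), Emp1 and Kbtbd11. Cox6a2 was nearest to Lsm3 (0.907), Slc27a2 and Ccr9, and Crip2 to Psmc2 (0.910), Pithd1 and Lias. Dntt and Ccr9 are themselves gate markers, so their part in the likeness is fixed by the gating.

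The LN mice were not used in choosing the members, so the 2 members with enough counts there, Cox6a2 and Crip2, were fitted. Cox6a2 was at 6.36 and 2.25 CPM in the WT libraries, at 1.17, 0.396 and 3.996 CPM in the Y665F het libraries and at 1.64 and 1.46 CPM in the Y665F homo libraries, from 3 to 40 UMIs each. Both homo libraries lay below both WT libraries, as in 35% of the 11382 genes tested in LN, and the het libraries overlapped with WT through replicate 3. Neither difference passed the edgeR threshold, with a log2 fold change of −1.31 (SE 0.80, adjusted p = 0.397) for homo against WT and −1.59 (SE 0.645, adjusted p = 0.281) for het against WT. The adjusted p ranged from 0.0966 to 0.838 for homo and from 0.0039 to 0.803 for het over the alternatives. Without a filter on low counts the het difference was called (−1.60). Leaving out 1 library at a time moved the log2 fold change from −1.98 (without WT replicate 2) to −0.44 (without WT replicate 1) for homo, and from −2.28 (without WT replicate 2) to −0.74 (without WT replicate 1) for het.

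In LN, 1.74% of all genes were called lower and 0.975% higher in homo, and 0.255% lower and 0.343% higher in het. The gates were set by the same markers in every tissue, and outside the marrow a gate does not by itself establish its cell type, since the gate of lymphoid-primed progenitors took 3.58% to 16.5% of LN barcodes and 6.44% to 12.99% of spleen barcodes. In the LN pDC gate Cox6a2 was at 313 and 102 CPM in WT, 21.0, 5.61 and 682 for het and 89.0 and 57.4 for homo, with 1 and 6 UMIs in the homo libraries and 8 in het replicate 3. Crip2 was at 1.59 and 0.809 CPM in WT, 1.30, 0.925 and 0 for het and 2.05 and 2.19 for homo. Both homo values were above both WT values, as in 16.9% of the LN genes. Crip2 passed the filter on low counts only with the homo libraries, so its homo values are a description and carry no test. By edgeR its log2 fold change was 1.02 (SE 0.643) for homo and −0.05 (SE 0.596, adjusted p = 0.993) for het, and neither was called. The other 4 genes had 0 to 4 UMIs in each LN library and were not tested. Het replicate 3 and homo replicate 1 were shallow, with medians of 368 and 395 UMIs a barcode.

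Of the fixed lists in LN homo, 7 of 18 pDC genes fell, among them Tcf4 (log2 fold change −1.59), Blnk (−1.54), Irf8 (−1.50), Spib (−1.35) and Ly6d (−1.31), several of which B cells also express. The list median was −0.89, beside a median near 0 for all LN genes. Of 11 dendritic cell regulators 4 fell, Bcl11a (−1.55), Irf8, Spib and Tcf4, 3 of them counted among the pDC genes too, with a list median of −0.89. Ebf1 (−1.71), Ly6d and Cd79a (−1.19), all B cell genes, were the 3 of 10 lymphoid progenitor genes that fell (median −0.27). Csrp2 (−1.17) was the 1 of 3 CRIP and related LIM genes that fell, and none of 8 monocarboxylate transporters or 11 oxidase subunits was called. In het no gene of these lists was called. These counts are sums over all LN barcodes, in which fewer cells of a type and less RNA per cell cannot be told apart. The part of B cell numbers in these calls was not tested.

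The spleen gave 1 library a genotype and hence no test. Cox6a2 had 102 UMIs in WT, 126 in Y665H and 20 in Y665F, or 2.71 CPM (exact Poisson 95% interval 2.21 to 3.28), 2.93 (2.44 to 3.49) and 0.575 (0.352 to 0.889). The Y665F interval lay below the other 2. In the spleen pDC gate it was at 42.0, 41.7 and 14.7 CPM, and these UMIs came from 7 of 252, 8 of 258 and 1 of 121 barcodes, so few cells carried the signal. In the WT spleen pDC gate 2.78% of barcodes carried Cox6a2. This share was not compared with that of marrow, since outside the marrow a gate does not by itself establish its cell type. Tmem121 had 23, 19 and 3 UMIs, or 0.610, 0.441 and 0.0863 CPM. Crip2 had 65, 94 and 86 UMIs, or 1.72, 2.18 and 2.47 CPM, with the highest value in Y665F. 1700003C15Rik, Gm19331 and Slc16a11 had at most 7 UMIs in any spleen library.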

How the data were processed

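The authors deposited raw UMI counts per gene and barcode for 16 expression libraries. The file headers name Cell Ranger 6.0.0 for spleen and BM and 5.0.0 for LN, and the submitters' processing notes name Cell Ranger 5.0, Seurat 4.0 and mm10. The labels name a 3′ kit and the study's methods a 5′ kit, so levels were compared only within a tissue. No quality thresholds were stated. A barcode needed 200 genes and could hold up to 10% of mitochondrial UMIs, and barcodes with the highest doublet scores were removed at a share of 0.8% per 1000 barcodes (3.40% to 15.0% in BM). A barcode entered a lineage gate with at least 2 of its 6 markers, a score of at least 0.3 and a lead of 0.1 over the next gate. Shares of barcodes were also taken after thinning to 1000 UMIs. Counts were summed per library and fitted with edgeR 4.0.16 in R 4.3.3 (quasi-likelihood, TMM, filterByExpr, Benjamini-Hochberg), 1 fit for each tissue or gate, and with DESeq2 1.42.0 as an alternative. The scripts were tested on simulated data. A floor of 3 counts was used for counts of 0. The p-values measure the spread between these libraries, which the labels do not say are separate animals. The study's caption of its single-cell map names lymph nodes and describes 1 pooled sample of 3 mice per group. The title of that figure names spleen, and the study's text on it describes CD45+ cells of spleen. How the spleen and LN libraries relate to that pool is not given. The members and gene lists were chosen with earlier results of these data known. Named were the 6 members, the 3 genes most like each in WT (at least 10 CPM in a gate), and up to 6 called genes of each list. T-cell receptor libraries were not used. The result of 1 listed gene is not reported here.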

Additional observations from a re-analysis of the deposited data

Results flagged for a closer look

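In contrast to its lower level over all marrow barcodes, Cox6a2 in the marrow T and NK gate was higher in both Y665F libraries than in both WT libraries, at 192 and 32.8 CPM against 20.4 and 28.2, a ratio of means of 4.63. These values came from 19 and 3 UMIs in Y665F and 2 and 2 in WT, and the 19 UMIs lay in 7 of 27 barcodes. The Y665H mean in this gate was 91.2 ± 14.65 CPM (SD, n = 2), from 20 UMIs. It too was above WT, so the higher level was not particular to Y665F. Of the 1722 genes with enough counts to test in that gate, which leave out Cox6a2, 17% were likewise higher in both Y665F libraries than in both WT libraries. Crip2, lower in Y665F marrow, was higher in both LN Y665F homo libraries than in both WT libraries, at 2.05 and 2.19 CPM against 1.59 and 0.809, a ratio of means of 1.77 from 5 and 12 UMIs against 10 and 9. The same order held for 16.9% of the 11382 genes tested in LN. Crip2 passed the filter on low counts in LN only with the homo libraries, so its values there are a description. Whether these differences depart from those of the other gate or tissue was not tested.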

How the results depend on the processing

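The sign of the log2 ratios of Y665F to WT is set by the choice of the 6 genes, so only their size is given. Leaving out 1 library each time gave −4.76 to −2.63 for 1700003C15Rik, −3.51 to −2.22 for Gm19331, −2.89 to −2.39 for Slc16a11, −3.01 to −2.05 for Tmem121, −1.61 to −0.40 for Cox6a2 and −3.27 to −2.60 for Crip2. Among females alone the ratio was −2.38 for 1700003C15Rik and −1.81 for Gm19331, among males −3.98 for Gm19331, and in Dntt-positive barcodes −3.68 for Slc16a11 and −1.75 for Crip2 (all added after seeing the data). Called genes in Y665H marrow, 0 as reported, numbered 2 with library totals alone, 48 without a filter on low counts and 40 with a replicate block, and in the progenitor gates 16 without a filter and 11 with the block. LN homo calls, 309 as reported, numbered 575 without a filter and 147 with the block, and LN het calls, 68 as reported (29 lower, 39 higher), 105 with library totals, 245 without a filter, 11 with the block and 35 with at least 500 genes a barcode. Leaving out 1 library gave 1457 to 2674 calls in Y665F marrow, 2 to 91 in Y665H marrow, 404 to 1909 and 0 to 743 in their progenitor gates, 70 to 438 in LN homo and 23 to 266 in LN het. Crip2 in LN het (log2 fold change −0.05 as reported) ranged from −0.61 to 0.44 when 1 library was left out, and reversed to 0.037 with the replicate block, 0.44 without WT replicate 1 and 0.13 without het replicate 3. Library totals alone moved the median of all genes in Y665F marrow from 0.03 to 0.18 and the calls from 1079 higher and 1157 lower to 1464 and 801. Each gene's deviations from its group mean correlated between same-numbered libraries at 0.0472 to 0.321 in marrow and −0.156 to 0.106 in LN. Same-numbered marrow libraries shared a sex by Xist, which the labels do not give and the methods state as male throughout. The block was therefore kept as an alternative, and a crossed block in LN homo gave 406 calls. Left out singly, WT replicate 2 moved Tmem121 to −2.05 and gave the smallest ratios of 1700003C15Rik and Cox6a2, the 91, 743 and 266 calls and 702 in Y665F progenitor gates; WT replicate 1 gave the 1909 and 188 in LN homo; Y665F replicate 2 gave the 1457 and 404; either homo replicate gave 70 or 74 in LN homo; and het replicates 1 and 3 gave 26 and 23 in LN het. The other omissions that moved counts by over 1.5 times gave 2 to 23 calls over all barcodes of Y665H marrow (WT replicate 1 and each Y665H and Y665F replicate), 1 to 12 in its progenitor gates (WT replicate 1, Y665H replicate 1 and each Y665F replicate) and 41 to 45 in LN het (WT replicate 1 and each homo replicate). The cause of these shifts was not tested. Members with under 20 UMIs in a library or gate are limited by depth.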
